A study of Mus musculus with 16 samples.

Results

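The genes described here are 42 nuclear genes for enzymes of the tricarboxylic acid (TCA) cycle and of amino acid catabolism in muscle. They come from a fixed list of gene names, with no measured value in the rule. The list was chosen with earlier results of these data known, so its counts beside those of all genes are descriptions. The list holds 12 TCA cycle enzymes, 6 cytosolic isoforms or malic enzymes, 5 transaminases or glutamate dehydrogenase, 6 genes for the entry of branched-chain amino acids into catabolism, 10 for their later steps and 3 for the use of ketone bodies. Each of the 42 was found by symbol among the 24454 genes counted, and all 42 were among the 15487 genes abundant enough to be tested. They were read in gastrocnemius muscle, a calf muscle of mostly fast fibres, from 16 mice of 3 months of age in 4 groups, with 1 mRNA sequencing library per mouse. The HSALR mice were homozygous for a transgene of human skeletal actin that carries long CTG repeats and is expressed only in skeletal muscle from the actin promoter. They come from the single line LR20b, which models the muscle disease of myotonic dystrophy type I. The control mice were of the background strain FVB and carried no transgene. AICAR, an activator of the energy sensor AMPK, was given at 500 mg/kg for 7 days, and the other mice received the vehicle. There were 5 HSALR mice given vehicle, 5 HSALR mice given AICAR, 3 FVB mice given vehicle and 3 FVB mice given AICAR. The samples are separate mice, and neither sex nor litter was used here.

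The TCA cycle is the mitochondrial pathway that oxidises acetyl-CoA from sugars, fatty acids, ketone bodies and amino acids, and its dehydrogenases feed electrons to the respiratory chain. Leucine, isoleucine and valine are the branched-chain amino acids, and skeletal muscle is a major site of their first step, a transamination. The next step is irreversible and is run by the branched-chain ketoacid dehydrogenase complex, which a kinase switches off and a phosphatase switches on. Muscle also takes up ketone bodies and turns them back into acetyl-CoA.

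Between 64890014 and 81987726 reads per library fell on genes, with a median of 73021286, and the 42 genes took 1.09% to 1.36% of them. The rarest member still had 353 reads in its lowest library. Levels below are normalized counts, CPM, scaled by library size and TMM factors, and values are listed in the order of the mouse identifiers. The summed level of 9 myofibre markers was 114648 to 157203 CPM in the 16 libraries, whereas 3 hepatocyte markers summed to at most 0.455 CPM. Summed adipocyte markers overlapped between all 4 groups (50.5 to 245 CPM). Summed endothelial markers were 137 to 185 CPM in the 10 HSALR mice and 208 to 234 CPM in the 6 FVB mice. All 3 endothelial markers were called lower in HSALR than in FVB mice after vehicle, and 2 of the 3 after AICAR. Summed macrophage markers (48.7 to 80.6 CPM) and Schwann cell markers (54.5 to 188 CPM) overlapped between the groups compared. Of the 4 macrophage markers, 2 were called higher without overlap in HSALR than in FVB vehicle mice, and 1 was called higher and 1 lower after AICAR in HSALR mice. Summed fibroblast markers were 935 to 1169 CPM after vehicle and 726 to 922 CPM after AICAR in FVB mice, with no overlap, and 791 to 1022 CPM and 703 to 835 CPM in HSALR mice. Epidermal markers summed to 0.612 to 187 CPM in HSALR vehicle mice and to at most 0.371 CPM in all 5 HSALR AICAR mice, and 8 of 8 were called lower after AICAR in HSALR mice. In FVB mice, 1 mouse of each treatment held 92.3 and 104 CPM of them and the others at most 1.21 CPM. The part of skin, fibroblast, endothelial and macrophage RNA in the results below was not tested. In muscle as a whole, fewer cells of a type and less RNA per cell cannot be told apart. Fast myosin heavy chain Myh1 was higher in HSALR than in FVB mice without overlap. It read 9472 to 17611 against 3512 to 5408 CPM after vehicle and 14294 to 19357 against 5116 to 5871 CPM after AICAR. Myh4, another fast myosin heavy chain, was lower in HSALR than in FVB mice after AICAR, without overlap. It read 29128 to 40099 against 46585.5 to 77350 CPM there, and overlapped after vehicle, at 24905 to 43976 against 37060 to 52173 CPM. Slow myosin heavy chain Myh7, a marker of slow oxidative fibres, was uneven within groups. It read 1506, 1647 and 4811 CPM in FVB vehicle mice S445, S446 and S450, and 1670.5, 1939 and 905 CPM in FVB AICAR mice S447, S448 and S449. Among HSALR mice it read 888, 1243, 889, 1091 and 1011 CPM after vehicle in S451, S452, S453, S458 and S459, and 601, 939, 811, 1615 and 737 CPM after AICAR in S454, S455, S460, S462 and S463. S450 thus stood far above its group, S462 was the highest of its own group and S449 the lowest of its own, and results that rest on these mice are also given without them.

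Across the list, per-length levels in all 16 mice ran from 2.46 CPM per kilobase of transcript for Me2, a mitochondrial malic enzyme, to 750 CPM per kilobase for Mdh2, the mitochondrial malate dehydrogenase. Cytosolic malate dehydrogenase Mdh1 (424 CPM per kilobase) and citrate synthase Cs (401 CPM per kilobase) followed. Genes of branched-chain amino acid entry sat lower on this per-length scale, from 118 CPM per kilobase for Bckdha to 4.91 CPM per kilobase for Ppm1k.

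The first question was how AICAR changed these genes in HSALR muscle. After AICAR, 15 of the 42 genes were higher and 9 were lower than after vehicle at an adjusted p under 0.05, while 18 did not pass. Among all genes tested, 13.7% were higher and 13.0% were lower. The TCA cycle enzymes carried most of the increases, with 9 of 12 higher and 1 lower. The genes that admit branched-chain amino acids into catabolism moved mostly down, with 4 of 6 lower and 1 higher. The median log2 change was 0.043 over the 42 genes against -0.020 over all genes tested. The median was 0.25 over the TCA cycle enzymes and -0.36 over the entry genes. With scaling by library totals alone the median of the 42 turned to -0.034.

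Mdh2, which oxidises malate in the last step of the cycle, was higher after AICAR in both genotypes. In HSALR mice Mdh2 read 795, 862, 743, 875 and 885 CPM after vehicle and 1087, 1109, 1027, 1182 and 1111 CPM after AICAR. In FVB mice it read 877, 797 and 854 CPM and 1067, 1066 and 1053 CPM, respectively. Neither pair of groups overlapped, and the log2 change was 0.41 ± 0.056 (SE, as in all values written this way below, adjusted p = 0.000126) in HSALR and 0.33 ± 0.073 (adjusted p = 0.00735) in FVB mice. Ogdh encodes the dehydrogenase subunit of the alpha-ketoglutarate dehydrogenase complex, a control point of the cycle. Its levels in HSALR mice were 961, 1059.8, 902, 927 and 1014 CPM after vehicle and 1339, 1317, 1263, 1471 and 1309 CPM after AICAR. The FVB mice held 1281, 1135 and 1170.2 CPM after vehicle and 1282, 1352 and 1520.4 CPM after AICAR. The HSALR vehicle mice were thus the lowest of the 4 groups with no overlap with any other. HSALR mice given AICAR fell within the range spanned by the FVB mice of both treatments together. Of these HSALR mice, only S460 (1263 CPM) did not exceed the highest FVB vehicle mouse (1281 CPM). AICAR raised Ogdh in HSALR mice (0.46 ± 0.064, adjusted p = 0.000131), and the FVB value did not pass (0.21 ± 0.083, adjusted p = 0.102).

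Both genes carry the same letters upstream of their start, so their promoters are printed here. The windows come from RefSeq on GRCm38.p6, the assembly of mm10, and run from 250 bases before to 50 bases after an annotated start. Capitals mark TGACGTCA, the palindromic cyclic AMP response element (CRE), and CCAAT or its reverse complement ATTGG. The Mdh2 window is chr5:135778399-135778698 on the plus strand, with the CRE beginning at position -127 from the start. The Ogdh window is chr11:6291347-6291646 on the plus strand, with the CRE beginning at position -51 from the start. It is 1 of 6 Ogdh windows from different annotated starts, of which 3 overlapping ones hold this same CRE and the other 3 hold none, and it was chosen for the CRE.
Mdh2 promoter: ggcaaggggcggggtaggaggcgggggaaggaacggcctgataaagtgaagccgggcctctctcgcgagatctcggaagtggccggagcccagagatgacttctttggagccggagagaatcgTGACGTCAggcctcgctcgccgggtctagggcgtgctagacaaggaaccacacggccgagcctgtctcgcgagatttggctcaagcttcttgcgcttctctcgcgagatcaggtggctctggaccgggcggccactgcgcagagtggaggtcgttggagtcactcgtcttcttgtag
Ogdh promoter: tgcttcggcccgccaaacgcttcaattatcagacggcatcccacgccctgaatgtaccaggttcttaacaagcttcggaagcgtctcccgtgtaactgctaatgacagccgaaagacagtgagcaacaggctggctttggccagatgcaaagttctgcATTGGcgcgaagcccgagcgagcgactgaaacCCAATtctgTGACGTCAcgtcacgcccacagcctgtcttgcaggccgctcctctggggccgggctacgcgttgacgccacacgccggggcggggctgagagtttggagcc
Promoter windows were found for 37 of the 42 genes, 49 windows in all, and those of 1 gene can overlap. Since such windows can hold the same site, genes rather than windows were counted. On either strand, TGACGTCA was in windows of 2 of the 37 genes, Mdh2 and Ogdh, against 2.03% of 27025 genes with a window. CCAAT was in windows of 19 of the 37 and of 41.1% of all. GCATGCGC, the core of the element bound by nuclear respiratory factor NRF1, was in those of Glud1, Ogdh and Pccb, against 3.05% of all genes. The full element of estrogen-related receptors, TCAAGGTCA, was in none of the 37 and in 0.466% of all, and its half-site AAGGTCA, which the full element contains, was in those of Got1 and Ogdh, against 5.38% of all. These matches are descriptions of the letters in the windows.

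The other TCA cycle enzymes that were higher in HSALR mice rose by smaller steps than Mdh2 and Ogdh. Dlst, the transferase subunit of the same complex as Ogdh, read 366, 376, 328, 360.4 and 361 CPM after vehicle and 433, 448.8, 426, 474 and 445.6 CPM after AICAR in HSALR mice. FVB mice held 369, 325 and 342 CPM after vehicle and 429, 450.97 and 468 CPM after AICAR. The groups did not overlap in either genotype, with log2 changes of 0.31 ± 0.051 (adjusted p = 0.000480) and 0.38 ± 0.066 (adjusted p = 0.00191). Fumarase, Fh1, hydrates fumarate to malate. Fh1 read 276, 279, 251, 269.8 and 289 CPM after vehicle and 322, 327, 317, 356 and 358 CPM after AICAR in HSALR mice. The corresponding FVB values were 282, 253 and 273 CPM and 335, 336 and 325 CPM. Fh1 was higher by 0.30 ± 0.052 in HSALR (adjusted p = 0.000733) and by 0.30 ± 0.067 in FVB mice on the log2 scale (adjusted p = 0.00886), again without overlap.

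NAD-dependent isocitrate dehydrogenase, built from Idh3a, Idh3b and Idh3g subunits, is a rate-controlling enzyme of the cycle. In HSALR mice Idh3b (0.26 ± 0.050, adjusted p = 0.00135) and Idh3g (0.29 ± 0.047, adjusted p = 0.000414) were higher after AICAR. The catalytic subunit gene Idh3a read 689, 824, 739.8, 734 and 809 CPM after vehicle and 819.7, 807, 819.9, 857 and 890.5 CPM after AICAR in HSALR mice, which overlapped. Its values in FVB mice were 752, 678 and 698 CPM and 825, 818 and 861 CPM, with no overlap. The log2 change of Idh3a was 0.14 ± 0.055, adjusted p = 0.0669 in HSALR mice, and 0.23 ± 0.071, adjusted p = 0.0417 in FVB mice. The HSALR value passed with DESeq2 (adjusted p = 0.0375) and without S452 (0.18) or S459 (0.17), and came to 0.067 with library totals alone (adjusted p = 0.322). Cs, which starts the cycle and is widely used as a marker of mitochondrial content, read 1071, 1110.5, 1042, 1069.9 and 1170.3 CPM after vehicle and 1186, 1165, 1209, 1278 and 1239 CPM after AICAR in HSALR mice. In FVB mice Cs read 1127, 1005 and 1083 CPM and 1122, 1106 and 1178 CPM. The groups overlapped in both genotypes, and Cs passed in HSALR mice with a small step (0.15 ± 0.049, adjusted p = 0.0297) but not in FVB mice (0.084 ± 0.063, adjusted p = 0.414). Among the succinyl-CoA ligase genes, Sucla2, of the ATP-forming enzyme, was higher in HSALR mice (0.23 ± 0.047, adjusted p = 0.00250), as was the shared subunit Suclg1 (0.14 ± 0.047, adjusted p = 0.0333). Suclg2, of the GTP-forming enzyme, did not pass in any comparison.

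Idh2 went the other way. It encodes the mitochondrial NADP-dependent isocitrate dehydrogenase, which makes NADPH and is abundant in oxidative fibres. Idh2 read 398, 449.2, 335, 448.6 and 403 CPM after vehicle and 226, 267, 282, 388 and 293 CPM after AICAR in HSALR mice. In FVB mice it read 606, 471 and 677 CPM and 569, 584 and 334 CPM. Mouse S450, the highest of all in Myh7, was also the highest in Idh2, S449 was the lowest FVB mouse in both, and S462 was the highest HSALR AICAR mouse in both. Idh2 was lower after AICAR in HSALR mice (-0.48 ± 0.16, adjusted p = 0.0397). That call was kept in 2 of the 10 fits that each left out 1 mouse, those without S453 or S462, with log2 changes of -0.61 to -0.40. The part of the fibre types in the Idh2 differences was not tested. In a fit with the Myh7 level as a covariate, chosen after seeing the data, the log2 change in HSALR mice was -0.42. 

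Among cytosolic isoforms and malic enzymes, only Aco1 passed in HSALR mice after AICAR. Aco1 is the cytosolic aconitase, which in iron-poor cells turns into an iron regulatory protein. It read 27.6, 24.3, 26.2, 27.6 and 26.5 CPM after vehicle and 35.01, 34.9, 35.6, 40.9 and 39.1 CPM after AICAR in HSALR mice, and 27.6, 26.6 and 27.5 CPM and 30.6, 35.02 and 38.0 CPM in FVB mice. The groups were apart in both genotypes (0.49 ± 0.063, adjusted p = 7.82e-05 in HSALR and 0.34 ± 0.081, adjusted p = 0.0118 in FVB mice). Mdh1, Idh1, Me2 and Me3 did not pass in either genotype.

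Got2 had the largest rise of the 42 genes in HSALR mice. It encodes the mitochondrial aspartate aminotransferase, which links glutamate to oxaloacetate and runs the malate-aspartate shuttle together with the malate dehydrogenases. Got2 read 496, 505, 458.1, 499 and 541 CPM after vehicle and 762, 759, 727, 802 and 732 CPM after AICAR in HSALR mice. FVB mice held 473, 373 and 522 CPM after vehicle and 572, 569 and 591 CPM after AICAR. The 5 HSALR mice given AICAR lay above every other mouse. The log2 change was 0.60 ± 0.073 in HSALR (adjusted p = 5.07e-05) and 0.34 ± 0.095 in FVB mice (adjusted p = 0.0273). The cytosolic partner Got1 and the alanine aminotransferases Gpt and Gpt2 did not pass in either genotype. Glud1, glutamate dehydrogenase, which releases ammonium from glutamate, read 178, 182, 165, 163 and 179 CPM after vehicle and 189.6, 186, 188, 199.7 and 183 CPM after AICAR in HSALR mice. It read 188, 173 and 191 CPM and 206, 203 and 199 CPM in FVB mice. The Glud1 log2 changes of 0.13 ± 0.046 (adjusted p = 0.0522) and 0.14 ± 0.059 (adjusted p = 0.130) did not pass, although the HSALR value passed with DESeq2 (adjusted p = 0.0286), with the Myh7 level as a covariate (adjusted p = 0.0341) and without S452 (0.15). With library totals alone it came to 0.048 (adjusted p = 0.535), and the FVB value came to 0.085 with upper-quartile factors.

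**Figure D1:**
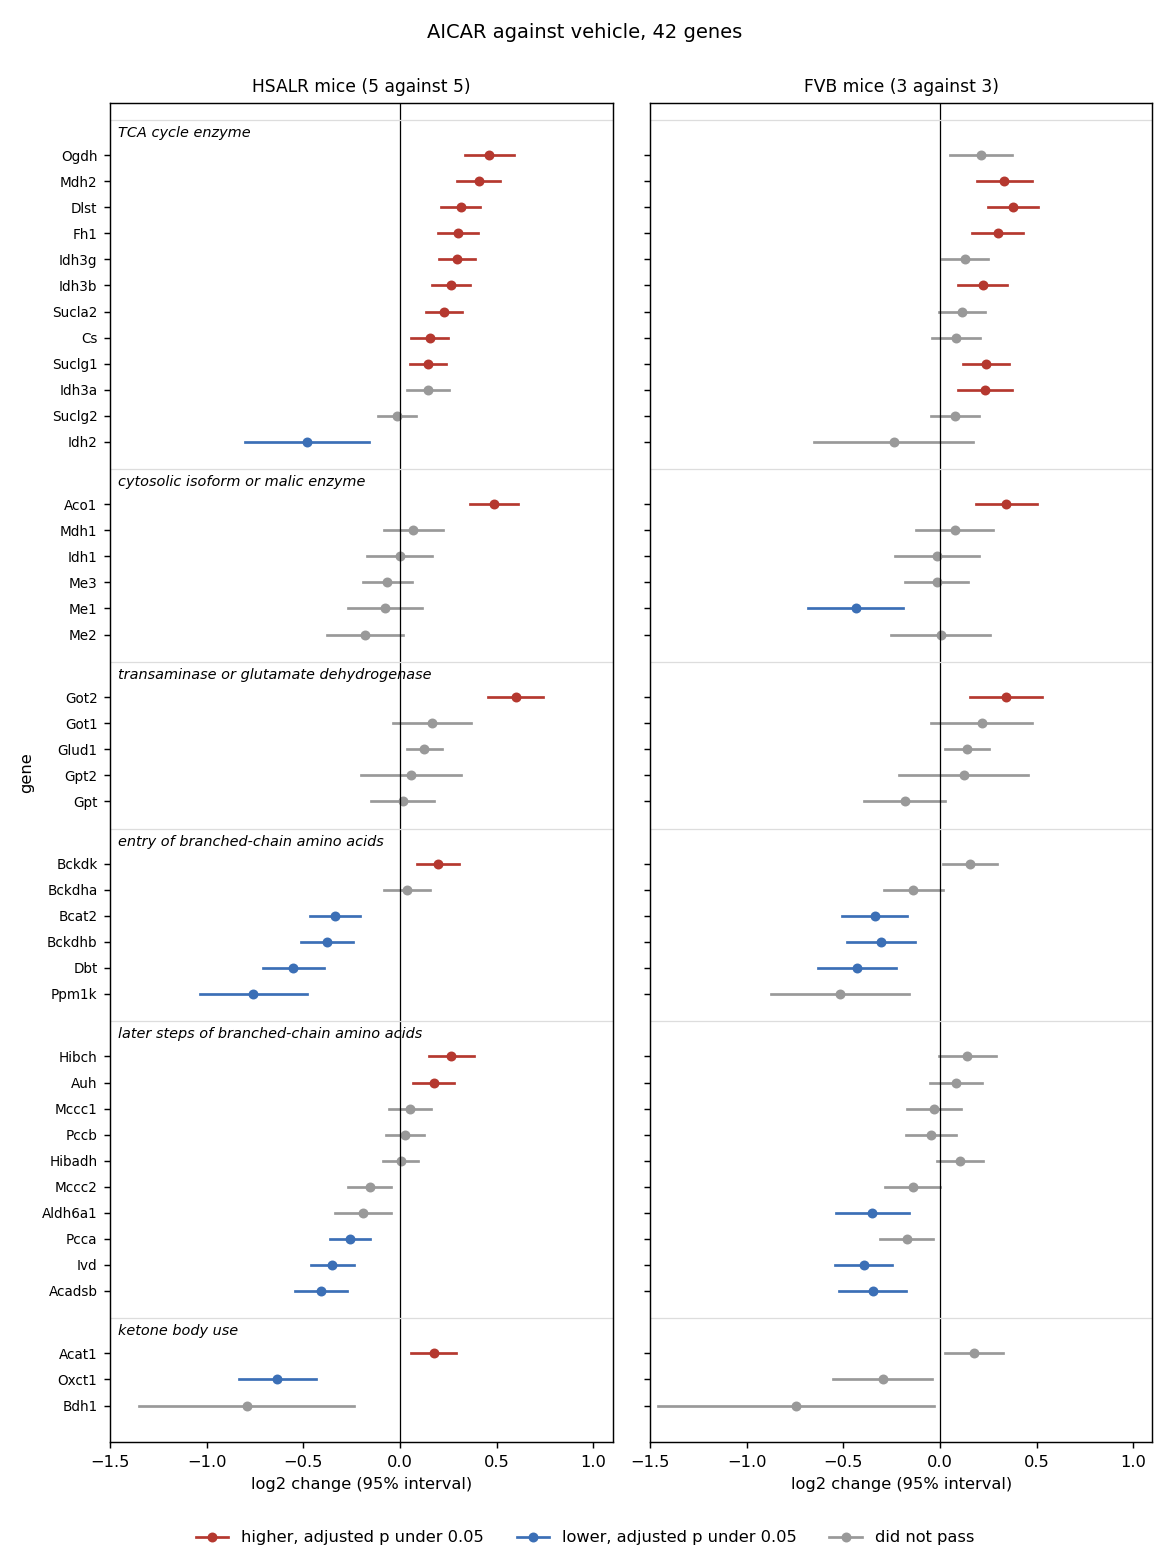
Log2 change of AICAR against vehicle (horizontal axis) for each of the 42 genes (rows, grouped by role), in HSALR mice (left, 5 against 5) and FVB mice (right, 3 against 3). Points are fitted changes with 95% intervals. Red marks the 15 and 8 genes that were higher and blue the 9 and 7 that were lower in HSALR and FVB mice, respectively.

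Catabolism of branched-chain amino acids was split after AICAR. Bcat2, the mitochondrial transaminase of the first step, read 82.1, 74.9, 74.8, 78.6 and 87.1 CPM after vehicle and 71.0, 60.1, 56.3, 63.2 and 64.4 CPM after AICAR in HSALR mice. It read 77.7, 72.2 and 84.3 CPM and 65.1, 62.3 and 58.0 CPM in FVB mice. The groups did not overlap, and Bcat2 was lower by a like step in both genotypes (-0.34 ± 0.066, adjusted p = 0.00184 in HSALR and -0.34 ± 0.085, adjusted p = 0.0175 in FVB mice). The dehydrogenase complex of the second step has a decarboxylase made of Bckdha and Bckdhb and a core transacylase, Dbt. Dbt read 47.1, 37.4, 41.5, 43.2 and 44.0 CPM after vehicle and 32.2, 28.4, 25.0, 32.4 and 27.2 CPM after AICAR in HSALR mice. The FVB values were 51.8, 43.2 and 47.1 CPM and 37.5, 35.2 and 32.8 CPM. All 8 mice given AICAR held less Dbt than every mouse given vehicle of their own genotype, with log2 changes of -0.55 ± 0.081 (adjusted p = 0.000197) in HSALR and -0.43 ± 0.10 (adjusted p = 0.0134) in FVB mice. Bckdhb was lower in both genotypes as well (-0.38 ± 0.069, adjusted p = 0.00107 in HSALR and -0.30 ± 0.089, adjusted p = 0.0351 in FVB mice). Bckdha read 211, 216, 202, 226 and 245 CPM after vehicle and 235, 232, 206, 223 and 232 CPM after AICAR in HSALR mice, and 206, 189 and 193 CPM and 190.3, 181 and 163 CPM in FVB mice. Unlike for its partner Bckdhb, the AICAR values of Bckdha did not pass in HSALR (0.036 ± 0.061, adjusted p = 0.706) or FVB mice (-0.14 ± 0.078, adjusted p = 0.266), and the former turned to -0.041 with scaling by library totals alone and ran from 0.0061 to 0.077 without S453 or S459.

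The kinase and the phosphatase of this complex moved in opposite directions in HSALR mice. Bckdk, the kinase that phosphorylates and switches off the complex, read 186, 213, 197, 216 and 224 CPM after vehicle and 239, 244, 228, 237 and 238 CPM after AICAR in HSALR mice. Its values in FVB mice were 191, 175 and 163 CPM and 199.7, 193 and 197 CPM. The 5 HSALR mice given AICAR were the highest of the 16. Ppm1k, the phosphatase that switches the complex on, read 33.1, 25.1, 26.0, 31.8 and 38.1 CPM after vehicle and 15.4, 17.8, 18.02, 21.2 and 18.6 CPM after AICAR in HSALR mice. FVB mice held 42.4, 28.1 and 42.5 CPM and 31.2, 26.2 and 21.7 CPM. The 5 HSALR mice given AICAR were the lowest of the 16, and FVB groups overlapped. Bckdk was higher by 0.20 ± 0.055 (adjusted p = 0.0160) and Ppm1k lower with a log2 change of -0.76 ± 0.14 (adjusted p = 0.00128) in HSALR mice. With scaling by library totals alone the Bckdk value did not pass (0.12, adjusted p = 0.0976). Neither passed in FVB mice (0.16 ± 0.071, adjusted p = 0.161 for Bckdk and -0.52 ± 0.18, adjusted p = 0.0744 for Ppm1k), although the Ppm1k value passed with DESeq2 (adjusted p = 0.0409) and without S446 (-0.69) or S447 (-0.65). Bckdk reads per Ppm1k read came to 4.86 ± 1.25 (SD, n = 3) in FVB vehicle, 7.63 ± 1.35 (n = 3) in FVB AICAR, 6.87 ± 1.19 (n = 5) in HSALR vehicle and 13.2 ± 1.60 (n = 5) in HSALR AICAR mice. This ratio of transcripts was 11.2 to 15.5 in HSALR AICAR mice, above the 3.84 to 9.08 spanned by the other 3 groups, and it was not tested.

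The promoter windows of this opposed pair are shown with the CCAAT letters or their reverse complement ATTGG in capitals, since both hold them. The Bckdk window is chr7:127903823-127904122 on the plus strand and the Ppm1k window is chr6:57535438-57535737 on the minus strand, both on GRCm38.p6 from RefSeq and printed in the direction of transcription.
Bckdk promoter: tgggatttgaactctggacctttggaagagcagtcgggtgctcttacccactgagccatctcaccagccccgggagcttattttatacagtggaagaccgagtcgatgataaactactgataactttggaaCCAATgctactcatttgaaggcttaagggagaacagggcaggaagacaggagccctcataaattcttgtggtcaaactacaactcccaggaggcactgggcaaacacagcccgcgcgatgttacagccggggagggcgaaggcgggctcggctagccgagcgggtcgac
Ppm1k promoter: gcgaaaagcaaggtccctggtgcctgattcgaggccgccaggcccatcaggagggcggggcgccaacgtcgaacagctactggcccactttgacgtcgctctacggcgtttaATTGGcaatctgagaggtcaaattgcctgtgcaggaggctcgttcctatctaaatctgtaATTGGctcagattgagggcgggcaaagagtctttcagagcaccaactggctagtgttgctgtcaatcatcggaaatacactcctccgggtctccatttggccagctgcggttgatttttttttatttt
CCAAT began at position -119 from the start of Bckdk, and ATTGG at positions -138 and -78 from the start of Ppm1k. Neither window held any of the other letters searched.

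Beyond the complex, the pathways of leucine, isoleucine and valine part. Ivd, the dehydrogenase of the leucine branch, read 154, 144, 137, 148 and 161 CPM after vehicle and 119, 112, 111, 121 and 119 CPM after AICAR in HSALR mice. It read 138, 123 and 128 CPM and 106, 101 and 88.7 CPM in FVB mice. Acadsb, the counterpart of Ivd in the isoleucine branch, read 152, 132, 139, 117 and 135 CPM after vehicle and 107, 103, 101, 103 and 93.4 CPM after AICAR in HSALR mice, and 178, 162 and 199 CPM and 146, 144 and 134 CPM in FVB mice. Neither gene overlapped between treatments within a genotype. Ivd was lower in HSALR (-0.35 ± 0.058, adjusted p = 0.000505) and in FVB mice (-0.39 ± 0.075, adjusted p = 0.00326), and so was Acadsb (-0.41 ± 0.069, adjusted p = 0.000608 and -0.35 ± 0.089, adjusted p = 0.0185, respectively). Pcca, the biotin-carrying subunit of propionyl-CoA carboxylase, where the isoleucine and valine branches meet, was lower in HSALR mice (-0.26 ± 0.054, adjusted p = 0.00262), and its partner Pccb did not pass in any comparison. Hibch of the valine branch (0.26 ± 0.059, adjusted p = 0.00430) and Auh of the leucine branch (0.17 ± 0.054, adjusted p = 0.0259) were higher in HSALR mice. Aldh6a1, the dehydrogenase that ends the valine branch, read 201, 202, 193, 157 and 208 CPM after vehicle and 165, 159, 178, 172 and 167 CPM after AICAR in HSALR mice. It read 266, 227 and 279 CPM and 213, 199.5 and 194 CPM in FVB mice, lower after AICAR with no overlap (-0.35 ± 0.10, adjusted p = 0.0263). In HSALR mice the groups overlapped in Aldh6a1 and the value did not pass. Hibadh and the carboxylase subunit Mccc2 did not pass in any comparison.

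Oxct1 encodes the transferase that lets muscle oxidise ketone bodies, a step the liver lacks. Oxct1 read 610.0, 478, 432, 447.7 and 449.6 CPM after vehicle and 303, 293, 291, 367 and 302 CPM after AICAR in HSALR mice. In FVB mice it read 646, 558 and 691 CPM and 522, 568 and 452.99 CPM. HSALR mice given AICAR held less Oxct1 than all 11 other mice. The log2 change was -0.64 ± 0.10 in HSALR mice (adjusted p = 0.000411), and the FVB value did not pass (-0.30 ± 0.13, adjusted p = 0.150). Bdh1, the ketone body dehydrogenase, ranged from 10.9 to 45.4 CPM over the 16 mice and did not pass in any comparison. Acat1, which splits the last product of the pathway and also serves isoleucine breakdown, was higher in HSALR mice (0.17 ± 0.060, adjusted p = 0.0425).

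**Figure D2:**
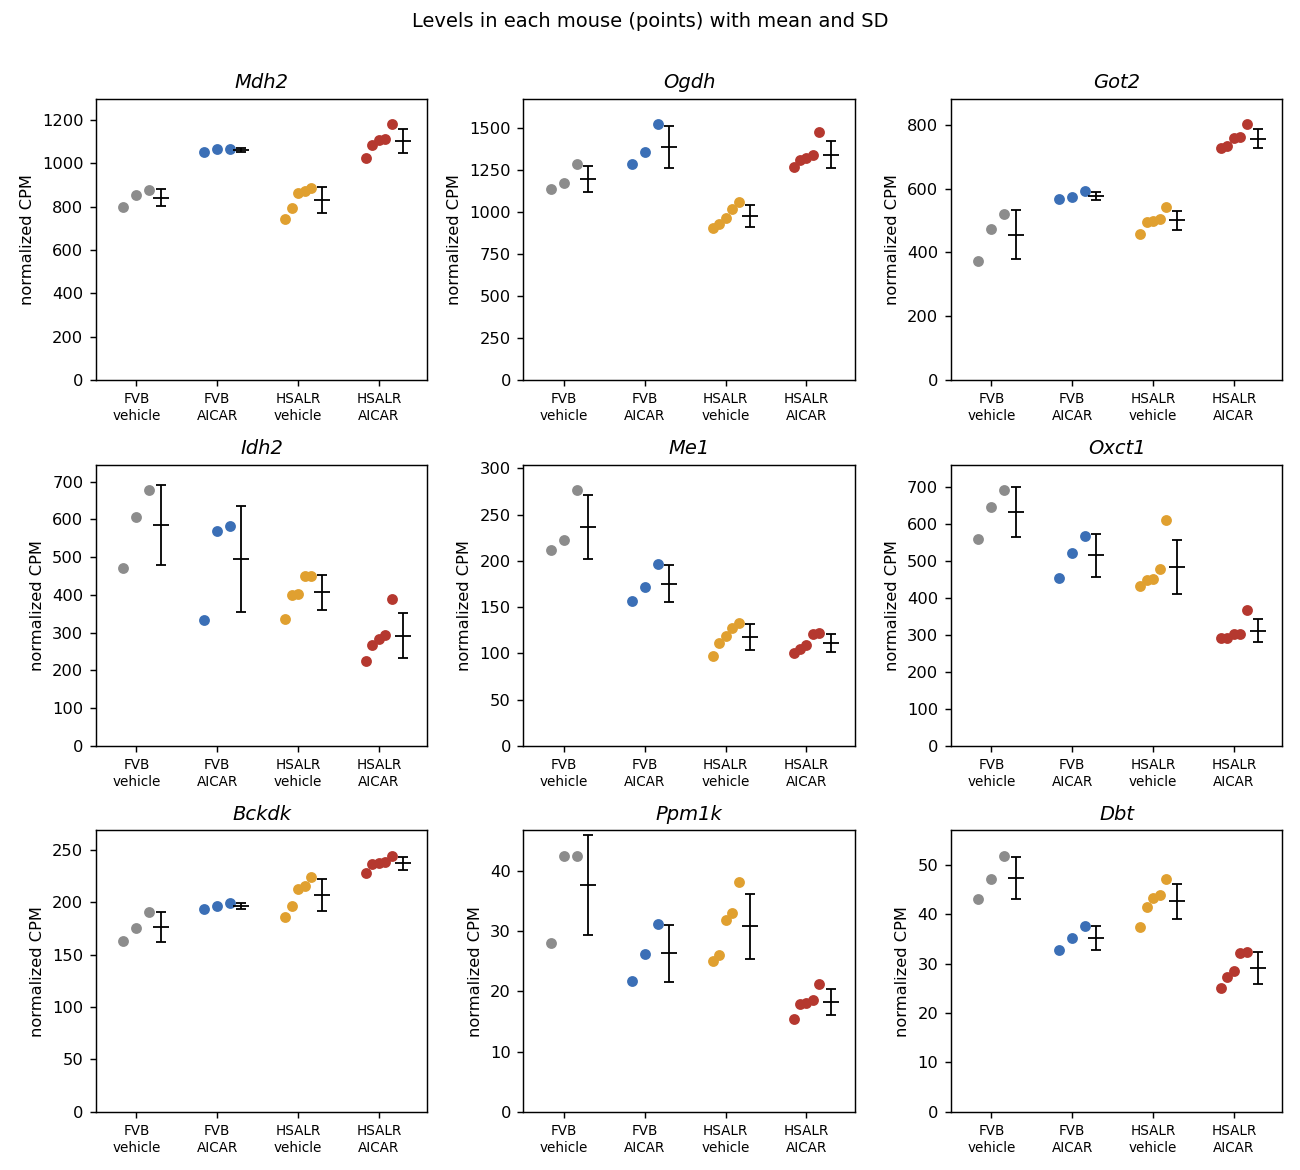
Normalized level in CPM (vertical axis, from 0) of 9 genes in each mouse (points) of the 4 groups, with the mean and SD beside them. The HSALR AICAR mice (red) lie above the HSALR vehicle mice (yellow) in Mdh2, Ogdh, Got2 and Bckdk and below them in Oxct1, Ppm1k and Dbt.

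Of the 24 calls in HSALR mice, 19 were kept whichever mouse was left out. Besides Idh2, the calls of Cs, Suclg1, Auh and Acat1 depended on single mice, being kept in 5 of the 10, 4 of the 10, 6 of the 10 and 3 of the 10 such fits. Their log2 changes stayed at 0.13 to 0.18, 0.12 to 0.17, 0.14 to 0.20 and 0.15 to 0.20 in those fits. The mice whose removal ended a call were S451, S453, S458, S462 and S463 for Cs. For Suclg1 they were S451, S453, S454, S455, S462 and S463, for Auh S451, S453, S460 and S463, and for Acat1 S451, S453, S454, S455, S458, S462 and S463. With scaling by library totals alone, Cs (0.076), Suclg1 (0.067), Auh (0.10), Acat1 (0.10) and Hibch (0.19) did not pass, like Bckdk, and Sucla2 came to 0.15 and still passed. The first 4 did not pass with upper-quartile factors either (0.12 to 0.15).

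In FVB mice, 8 of the 42 genes were higher and 7 were lower after AICAR, while 8.40% of all genes tested were higher and 4.77% lower. The genes that rose were Dlst, Aco1, Got2, Mdh2, Fh1, Suclg1 (0.24 ± 0.060, adjusted p = 0.0181), Idh3a and Idh3b (0.22 ± 0.064, adjusted p = 0.0336), 6 of them TCA cycle enzymes. The genes that fell were Me1, Dbt, Ivd, Aldh6a1, Acadsb, Bcat2 and Bckdhb. The median log2 change was 0.079 over the 42 genes and -0.0084 over all genes tested. Me1, the cytosolic malic enzyme that supplies NADPH for fat synthesis, read 223, 212 and 277 CPM after vehicle and 172, 157 and 197 CPM after AICAR in FVB mice (-0.44 ± 0.13, adjusted p = 0.0323), with no overlap. In HSALR mice Me1 read 119, 127, 133, 97.1 and 111 CPM after vehicle and 121, 122, 109, 100.3 and 105 CPM after AICAR, which overlapped (-0.077 for the log2 change, adjusted p = 0.600).

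With 3 mice per group, 4 of the 15 FVB calls were kept whichever mouse was left out, those of Dlst, Fh1, Mdh2 and Ivd. The count of 15 fell to 7 without S449 and to 8 without S450, and it was 4 in a fit of the 6 FVB mice alone, those of Dlst, Ivd, Dbt and Bcat2. Suclg1, Idh3a, Idh3b and Got2 did not pass with library totals alone or with upper-quartile factors, nor did Bckdhb with library totals alone. With the Myh7 level as a covariate, Idh3a, Idh3b, Me1, Bcat2, Bckdhb, Acadsb and Aldh6a1 did not pass. Suclg1 was lost without S446 (0.21) and Aco1 without S449 (0.27). Dbt was lost without S445 (-0.36) or S449 (-0.38). Bcat2 and Acadsb were lost without S450 (-0.28 and -0.27) or S449 (-0.29 and -0.31), and Bckdhb without S445 (-0.32), S450 (-0.22) or S449 (-0.20). Me1 was lost without S445, S447, S448 or S450, with log2 changes of -0.53 to -0.31 over the 6 fits. Idh3b was lost without S446, S447, S448 or S450 (0.19 to 0.27) and Aldh6a1 without S445, S448, S449 or S450 (-0.43 to -0.29). Idh3a was kept only without S445 (0.20 to 0.28) and Got2 only without S450 (0.22 to 0.45). Among FVB values that did not pass, Cs came to 0.028 with upper-quartile factors and to 0.040 without S446. Without S449, Ogdh came to 0.14 and Bckdha to -0.078. Bckdk came to 0.10 with upper-quartile factors or without S450, and Oxct1 to -0.20 with the Myh7 covariate, and none of these passed.

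The next question was whether AICAR acted differently in the 2 genotypes. None of the 42 genes passed the test of the difference between the AICAR effects by edgeR, against 0.207% of all genes with a more positive effect in HSALR mice and 0.484% with a more negative one. DESeq2 and limma voom also called 0. At an unadjusted p under 0.05 there were 4 of the 42 members by edgeR, against 2324 of all 15487 genes tested. The 4 members were Me1 (0.36 ± 0.16, adjusted p = 0.302), Got2 (0.26 ± 0.12, adjusted p = 0.325), Ogdh (0.25 ± 0.10, adjusted p = 0.277) and Idh3g (0.17 ± 0.077, adjusted p = 0.324). Without S450 the difference came to 0.23 for Me1 and 0.15 for Got2, and over the fits that each left out 1 mouse it ran from 0.23 to 0.45 and from 0.15 to 0.38, respectively. The 95% interval of the difference was 0.023 to 0.49 for Got2 and 0.045 to 0.45 for Ogdh on the log2 scale, so the data do not show whether the genotypes respond alike in these genes. The AICAR effects in the 2 genotypes share no mice. Their fitted changes had the same sign in 36 of 42 genes and in 68.0% of all genes tested. Higher in both genotypes were 7 members, lower in both were 5, and none was called in opposite directions, while 5.57% of all genes tested were higher in both and 2.26% lower in both.

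**Figure D3:**
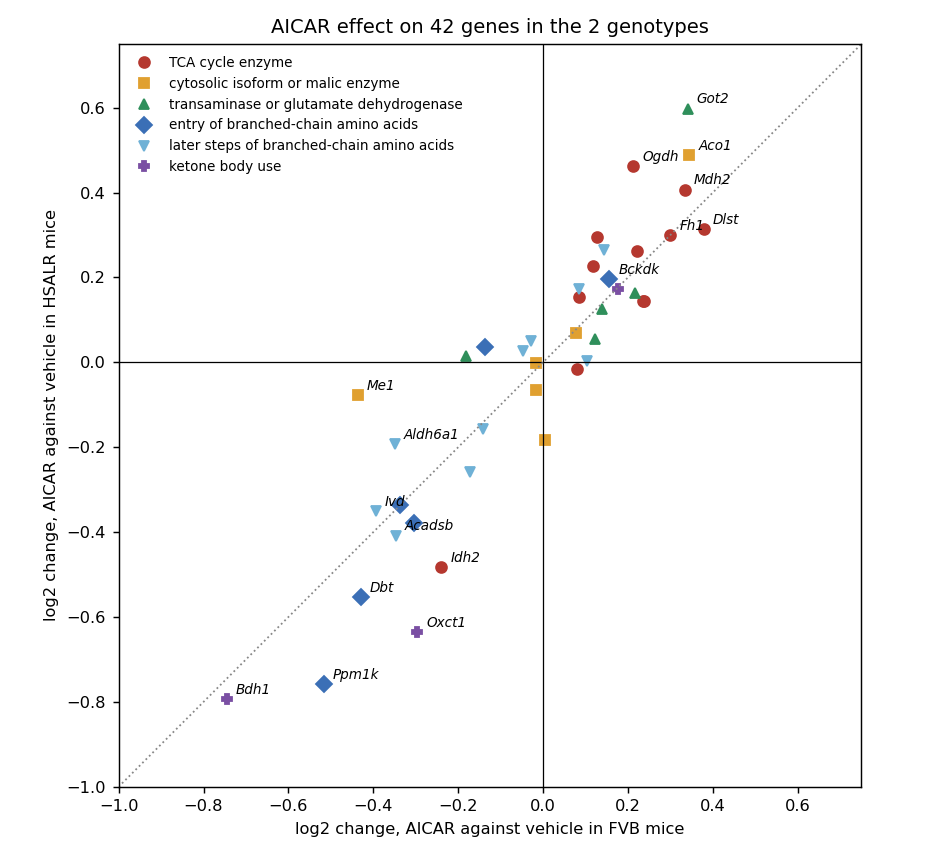
Log2 change of AICAR against vehicle in FVB mice (horizontal axis) and HSALR mice (vertical axis) for the 42 genes, with symbols for their roles and a dotted line of equal change. The TCA cycle enzymes except Idh2 and Suclg2 lie above 0 on both axes, and 36 of the 42 genes have the same sign on both axes.

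The third question was how HSALR muscle differed from FVB muscle after vehicle. Here 3 of the 42 genes were higher and 8 lower in HSALR mice, against 15.4% higher and 11.5% lower among all genes tested, and 31 did not pass. The median log2 difference was -0.015 over the 42 genes and 0.0097 over all genes tested. Me1 was lowest in HSALR mice by the widest margin, at 118 ± 14.0 CPM (SD, n = 5) against 237 ± 34.6 CPM (n = 3). Every HSALR mouse lay below every FVB mouse in Me1, for a log2 difference of -1.01 ± 0.11 (adjusted p = 1.05e-05). Summed adipocyte markers were 83.9 to 222 CPM in these HSALR and 106 to 172 CPM in these FVB mice. The other lower genes were Idh2 (-0.52 ± 0.19, adjusted p = 0.0479), Aldh6a1 (-0.42 ± 0.085, adjusted p = 0.00195), Acadsb (-0.41 ± 0.079, adjusted p = 0.00130), Oxct1 (-0.39 ± 0.12, adjusted p = 0.0222), Ogdh (-0.30 ± 0.073, adjusted p = 0.00743), Bckdhb (-0.25 ± 0.079, adjusted p = 0.0273) and the carboxylase subunit Mccc1 of the leucine branch (-0.25 ± 0.063, adjusted p = 0.00944). Oxct1 overlapped between the groups, since HSALR mouse S451 (610.0 CPM) lay above the lowest FVB mouse, S446 (558 CPM). The 3 higher genes were Pcca (0.29 ± 0.063, adjusted p = 0.00329), Bckdk (0.23 ± 0.064, adjusted p = 0.0143) and Ivd (0.20 ± 0.067, adjusted p = 0.0375). Pcca read 66.3, 70.2, 67.3, 66.7 and 71.5 CPM in HSALR vehicle and 56.2, 52.3 and 59.8 CPM in FVB vehicle mice, with no overlap, whereas Bckdk and Ivd overlapped.

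Me1, Acadsb, Aldh6a1, Mccc1 and Pcca passed after vehicle whichever mouse was left out. The count of 11 fell to 7 without S445 and to 7 without S450. Ogdh was lost without S445 (-0.24) and Bckdk without S450 (0.18). Oxct1 was lost without S445 (-0.37) or S450 (-0.32). Bckdhb was lost without S445, S450, S453 or S459 (-0.31 to -0.17 over the 8 fits). Ivd was kept only without S445 or S453 (0.16 to 0.25), and Idh2 only without S446 or S452 (-0.66 to -0.40). With library totals alone Idh2, Bckdhb, Ivd and Oxct1 did not pass. Idh2 did not pass with limma voom or without a low-count filter either, nor did Ivd with RLE or upper-quartile scaling factors. In a fit of the compared groups alone, Bckdk, Ivd and Oxct1 did not pass. With the Myh7 level as a covariate, 5 of the 42 genes passed, namely Me1, Ogdh, Acadsb, Aldh6a1 and Pcca, while Idh2 came to -0.055, Oxct1 to -0.20 and Bckdhb to -0.10. Myh7 itself was 888 to 1243 CPM in HSALR and 1506 to 4811 CPM in FVB vehicle mice, with no overlap. The fit with the Myh7 covariate thus cannot tell Myh7 and genotype apart after vehicle, and the part of Myh7 in these differences was not tested. Myh1 differed by 1.52 ± 0.19, adjusted p = 4.08e-05 on the log2 scale after vehicle and by 1.499 ± 0.19, adjusted p = 7.82e-05 after AICAR, and its part was not tested.

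After AICAR, 5 of the 42 genes were higher and 8 lower in HSALR than in FVB mice, against 12.2% and 9.64% of all genes tested. The median log2 difference was 0.0011 over the 42 genes and 0.0037 over all genes tested. Got2 (0.39 ± 0.086, adjusted p = 0.00478), Bckdha (0.34 ± 0.071, adjusted p = 0.00347), Bckdk (0.27 ± 0.064, adjusted p = 0.00746), Ivd (0.24 ± 0.067, adjusted p = 0.0177) and Pcca (0.20 ± 0.063, adjusted p = 0.0326) were higher. Pcca read 63.7, 58.2, 55.6, 54.4 and 54.0 CPM in HSALR and 51.7, 46.8 and 50.9 CPM in FVB mice given AICAR. All 5 genes were free of overlap between the genotypes. Idh2 (-0.77 ± 0.18, adjusted p = 0.00852), Oxct1 (-0.73 ± 0.12, adjusted p = 0.000454), Me1 (-0.65 ± 0.11, adjusted p = 0.000734), Ppm1k (-0.53 ± 0.16, adjusted p = 0.0286), Acadsb (-0.47 ± 0.079, adjusted p = 0.000661), Bckdhb (-0.33 ± 0.079, adjusted p = 0.00879), Dbt (-0.28 ± 0.092, adjusted p = 0.0444) and Aldh6a1 (-0.26 ± 0.085, adjusted p = 0.0376) were lower, and of these Idh2 alone overlapped. Within the ketoacid dehydrogenase complex, the transcript of one decarboxylase subunit, Bckdha, was thus higher and that of the other, Bckdhb, lower in HSALR than in FVB mice. Ogdh, at 1339.8 ± 78.6 CPM (SD, n = 5) in HSALR and 1385 ± 122 CPM (n = 3) in FVB mice, did not pass after AICAR.

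The genotype comparisons after vehicle and after AICAR share no mice. Their differences had the same sign in 36 of 42 genes and in 71.0% of all genes tested. Pcca, Bckdk and Ivd were higher in HSALR mice in both, and Me1, Idh2, Oxct1, Acadsb, Aldh6a1 and Bckdhb were lower in both, while 8.01% of all genes tested were higher in both and 4.76% lower in both. After AICAR, Idh2, Oxct1, Me1, Acadsb, Got2, Bckdha and Bckdk passed whichever mouse was left out, and the count of 13 fell to 8 without S447. Ivd was lost without S449 (0.17) and Bckdhb without S447 (-0.28) or S448 (-0.26). Ppm1k was lost without S447, S448, S454 or S455 (-0.65 to -0.39). Dbt was lost without S447, S448, S455, S460 or S463 (-0.32 to -0.23) and Pcca without S447, S448, S449, S454 or S455 (0.16 to 0.23). Aldh6a1 was kept only without S460 (-0.29 to -0.22). With the Myh7 level as a covariate after AICAR, Idh2 came to -0.47 and still passed, while Ppm1k (-0.39), Dbt (-0.26), Aldh6a1 (-0.22) and Pcca (0.20) did not pass. With library totals alone Dbt, Ivd and Pcca did not pass. Dbt did not pass with upper-quartile factors or without a low-count filter either, nor did Pcca with RLE factors. In a fit of the compared groups alone, Dbt and Pcca did not pass. The AICAR comparison in HSALR mice shares its vehicle mice with the genotype comparison after vehicle, so their values for a gene such as Ogdh are not independent.

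**Figure D4:**
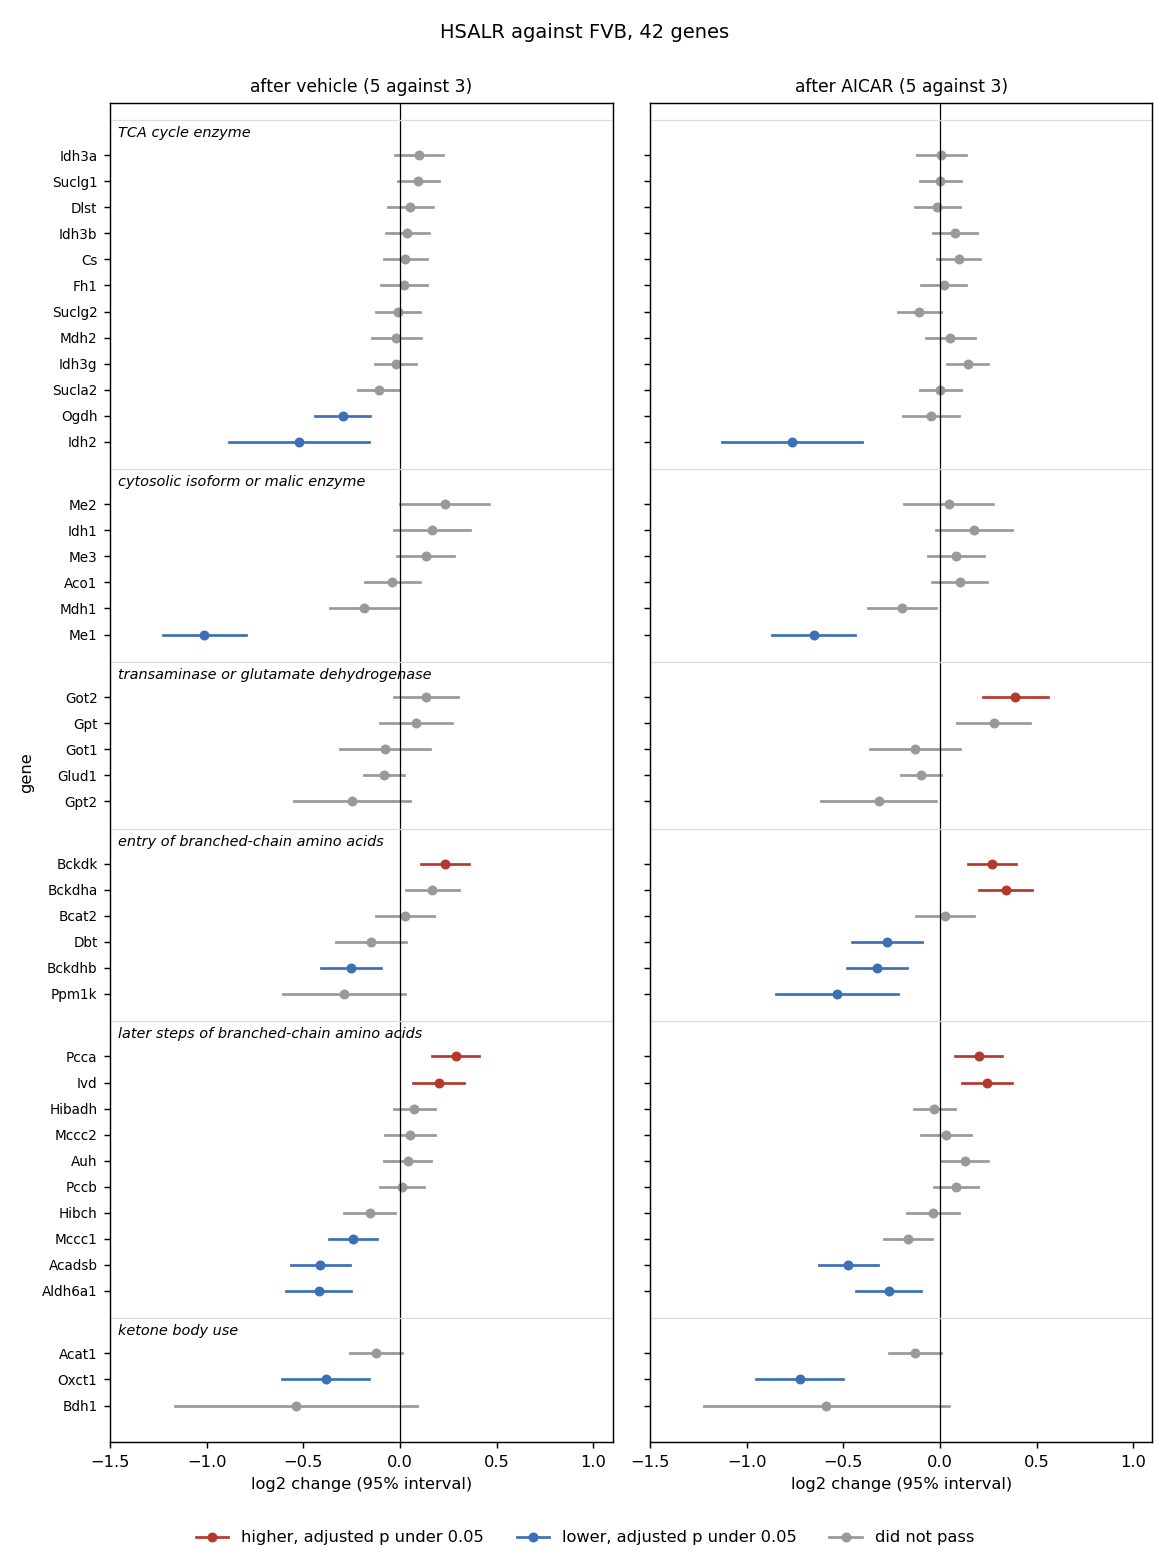
Log2 difference of HSALR against FVB mice (horizontal axis) for each of the 42 genes (rows, grouped by role), after vehicle (left) and after AICAR (right), each with 5 HSALR and 3 FVB mice. Points are fitted differences with 95% intervals. Me1, Idh2, Oxct1, Acadsb, Aldh6a1 and Bckdhb (blue) are lower and Pcca, Bckdk and Ivd (red) higher in both panels.

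A wider list of 65 other enzymes, subunits and transporters of these pathways was read beside the 42 genes. After AICAR, 15 of the 65 were higher and 13 lower in HSALR mice, and 7 were higher and 6 lower in FVB mice. The shares over all genes tested were 13.7% and 13.0% in HSALR and 8.40% and 4.77% in FVB mice. In the cycle, the succinate dehydrogenase subunits Sdha (0.31 ± 0.055, adjusted p = 0.00100) and Sdhd (0.30 ± 0.053, adjusted p = 0.000780) and the shared subunit Dld of the ketoacid dehydrogenases (0.31 ± 0.064, adjusted p = 0.00240) were higher in HSALR mice given AICAR. Outside the cycle, Abat, which breaks down the amino acid GABA, was lower in both genotypes (-1.29 ± 0.19, adjusted p = 0.000258 in HSALR and -1.09 ± 0.25, adjusted p = 0.00977 in FVB mice).

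The widest change of the 65 was in Aacs, a cytosolic enzyme that turns acetoacetate into a precursor for lipid synthesis. Aacs read 11.0, 6.44, 11.6, 16.8 and 7.64 CPM after vehicle and 132, 99.7, 68.8, 116 and 135 CPM after AICAR in HSALR mice. In FVB mice it read 7.23, 8.61 and 14.1 CPM and 36.6, 76.6 and 88.0 CPM. The treatments did not overlap in either genotype, and AICAR raised Aacs by 3.36 ± 0.31, adjusted p = 3.55e-06 on the log2 scale in HSALR and by 2.75 ± 0.39, adjusted p = 0.000492 in FVB mice. Among ketone body genes, this rise stood beside the lower Oxct1 of HSALR mice given AICAR.

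Slc7a5 and Slc3a2 form the plasma membrane transporter of leucine and other large neutral amino acids. Slc7a5 read 4.15, 5.75 and 5.27 CPM after vehicle and 19.5, 9.92 and 16.5 CPM after AICAR in FVB mice (1.60 ± 0.26, adjusted p = 0.00114). In HSALR mice it read 4.10, 4.19, 4.27, 4.65 and 3.41 CPM and 6.43, 4.56, 7.28, 4.15 and 3.84 CPM, which overlapped, with a log2 change of 0.35 ± 0.20, adjusted p = 0.214. The difference between the genotypes' AICAR effects was -1.25 ± 0.32, adjusted p = 0.0868, which did not pass. Slc3a2 was higher after AICAR in both genotypes (0.35 ± 0.058, adjusted p = 0.000477 in HSALR and 0.42 ± 0.074, adjusted p = 0.00218 in FVB mice).

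Between genotypes, 7 of the 65 genes were higher and 12 lower in HSALR mice after vehicle, and 5 higher and 9 lower after AICAR, where all genes gave 15.4% and 11.5% after vehicle and 12.2% and 9.64% after AICAR. Ogdhl, a paralog of Ogdh that is best known from brain, read 7.24, 8.62, 8.02, 8.38 and 9.98 CPM in HSALR and 1.65, 1.66 and 1.85 CPM in FVB vehicle mice. After AICAR it read 6.51, 4.32, 4.40, 5.22 and 9.04 CPM in HSALR and 0.939, 1.60 and 1.40 CPM in FVB mice. Ogdhl was higher in HSALR mice after either treatment (2.30 ± 0.24, adjusted p = 7.22e-06 after vehicle and 2.16 ± 0.24, adjusted p = 2.33e-05 after AICAR), with no overlap. In reads not corrected for transcript length, there were 0.00869 ± 0.000887 Ogdhl reads per Ogdh read (SD, n = 5) in HSALR vehicle and 0.00144 ± 0.000146 (n = 3) in FVB vehicle mice. Mmut, the mutase that hands propionate carbon to the cycle (-0.34 ± 0.058, adjusted p = 0.000506), was lower in HSALR than in FVB vehicle mice.

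**Figure D5:**
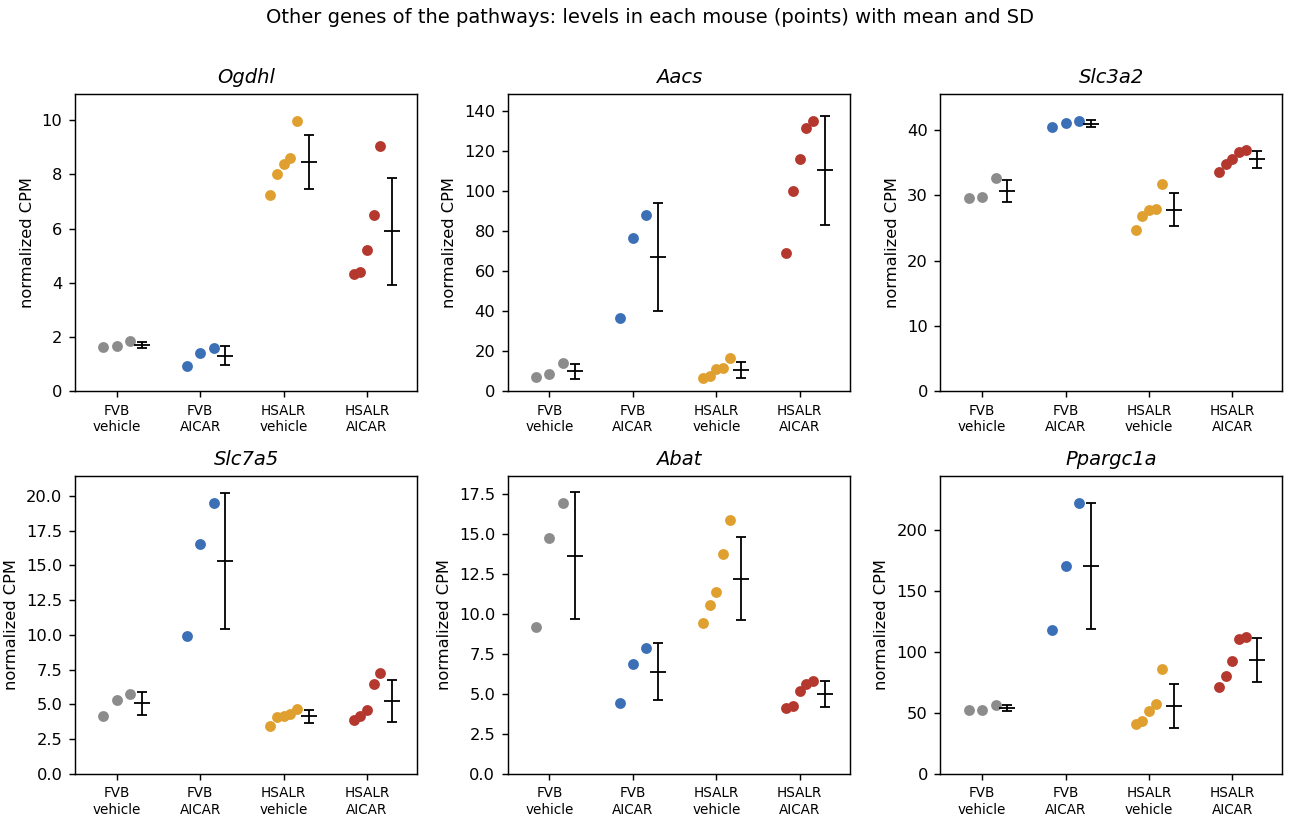
Normalized level in CPM (vertical axis, from 0) of 5 other pathway genes and the coactivator gene Ppargc1a in each mouse (points) of the 4 groups, with the mean and SD beside them. Ogdhl is higher in every HSALR mouse than in every FVB mouse, and Aacs is higher and Abat lower in every AICAR mouse than in every vehicle mouse of the same genotype.

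Of 17 transcriptional regulators of oxidative and amino acid genes, 4 were higher and 1 lower after AICAR in HSALR mice, and 5 higher and 1 lower in FVB mice, beside the same 13.7% and 13.0% and 8.40% and 4.77% of all genes. Ppargc1a, the coactivator PGC-1alpha that drives mitochondrial genes, read 51.9, 86.0, 57.3, 40.6 and 43.7 CPM after vehicle and 112, 110.4, 71.0, 80.6 and 92.4 CPM after AICAR in HSALR mice. In FVB mice it read 52.6, 52.3 and 56.7 CPM and 118, 171 and 222 CPM. It rose in both genotypes (0.74 ± 0.20, adjusted p = 0.0138 in HSALR and 1.66 ± 0.27, adjusted p = 0.00113 in FVB mice), and the difference between the effects did not pass (-0.92 ± 0.33, adjusted p = 0.206). Its partner receptor Esrra rose by smaller steps (0.20 ± 0.068, adjusted p = 0.0372 in HSALR and 0.28 ± 0.088, adjusted p = 0.0493 in FVB mice). Atf4, a factor that drives amino acid synthesis genes, was lower after AICAR in HSALR mice (-0.43 ± 0.072, adjusted p = 0.000567). Between genotypes, 1 of the 17 passed after vehicle and 4 after AICAR, and all 5 calls were lower in HSALR mice, beside 11.5% and 9.64% of all genes lower.

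Exons of 9 members overlap those of a gene on the opposite strand, among them Got2, Idh3b, Me1, Bcat2, Mccc1, Aldh6a1 and Oxct1. The use of strand in the counting was not given in the sources used here, so reads of such pairs might not be told apart.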

How the data were processed

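Gastrocnemius muscle of 16 mice was sequenced, with 1 stranded TruSeq mRNA library per mouse. The authors aligned single-end reads with STAR 2.5.2a to mm10 and counted, with QuasR 1.16.0, the reads that start within any annotated exon of a RefSeq gene. The deposited file holds these raw counts per gene for each mouse, with the gene length and no normalization. Reads fit for up to several places were kept at 1 of them, so near-identical gene copies can share reads. Whether strand was used in counting was not given in the sources used here. Symbols were matched to 24374 of 24454 gene identifiers through RefSeq.

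The counts were tested with edgeR 4.0.16 in R 4.3.3 (TMM factors, quasi-likelihood F-test, 1 mean per group over all 16 libraries, low counts filtered by edgeR's rule over the 4 groups). P-values were adjusted by Benjamini-Hochberg over the 15487 genes tested, with a threshold of 0.05, and SE denotes the fitted standard error. Intervals are 1.96 SE either side. P-values set the difference between groups against the spread between mice. The labels give no batch. The alternatives were other scaling factors, other filters, DESeq2 1.42.0, limma 3.58.1 voom, a fit of the compared groups alone and each mouse left out, plus a Myh7 covariate chosen after seeing the data. The edgeR procedure was tested on simulated data.

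The members and gene lists were chosen with earlier results of these data known. Values per mouse are given for Cs, Idh3a, Ogdh, Glud1, Bcat2, Bckdha, Bckdk, Ppm1k and Oxct1, and for up to 5 called members in each direction with the largest log2 change per comparison. Other genes come from lists of 65 pathway genes, 17 regulators and markers of cell and fibre types, of which some values are not reported here.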

Additional observations from a re-analysis of the deposited data

Results flagged for a closer look

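Within the 2 groups of 5 mice, the levels of the 42 genes were searched for a mouse far from the other 4 by Dixon's test at the 95% level. Of 84 sets of values, 7 were marked, where chance gives 4.2. After AICAR in HSALR mice, S462 was high in Mdh1 (919 CPM, the others 758 to 794), Hibch (68.8 CPM, the others 60.9 to 63.1) and Oxct1 (367 CPM, the others 291 to 303). The same mouse had the highest Myh7 of its group (1615 CPM, the others 601 to 939), and its part in these levels was not tested. In the same group S460 was low in Idh3g (334.6 CPM, the others 352 to 357). After vehicle in HSALR mice, S451 was high in Oxct1 (610.0 CPM, the others 432 to 478), S453 was low in Mdh1 (711 CPM, the others 774 to 796) and S458 was low in Aldh6a1 (157 CPM, the others 193 to 208). Groups of 3 mice were not searched.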

How the results depend on the processing

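No paired analysis was possible because mice of different groups share no identifier. No called member changed direction under any alternative, and the uncalled AICAR change of Bckdha in HSALR mice turned to -0.041 with library totals alone. Calls kept under every alternative were 4 of 11 for genotype after vehicle, 7 of 13 for genotype after AICAR, 17 of 24 for AICAR in HSALR and 2 of 15 for AICAR in FVB mice. Genotype after vehicle gave 7 called members with library totals alone, 5 with the Myh7 covariate and 7 to 15 with 1 mouse left out, and its median was 0.045 with that covariate. Genotype after AICAR gave 8 to 13 called members with 1 mouse left out. AICAR in HSALR mice gave a median of -0.034 with library totals alone, a scaling that moved the median of all genes by -0.078, and 19 to 25 called members with 1 mouse left out. AICAR in FVB mice gave 4 called members in a fit of those groups alone, 9 with the Myh7 covariate and 7 to 12 with 1 mouse left out, with medians of 0.019 (without S446) to 0.097. The difference between the AICAR effects gave 0 called members under every alternative. The cause of these shifts was not tested.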
